A study of Mus musculus with 2 samples.

Results

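The alpha and beta globin genes and a small group of genes that serve the red cell lineage were examined in a map of open chromatin of newborn mouse heart. The 9 genes were chosen by name: the alpha globins Hba-a1 and Hba-a2, the adult beta globins Hbb-bs and Hbb-bt, the embryonic beta-like globins Hbb-y and Hbb-bh1, and Alas2, Klf1 and Slc4a1, out of 21938 protein-coding genes annotated in GENCODE vM21. Every DNase-seq peak within 500 bp of one of their transcription start sites (TSSs), in the gene body or within 60 kb of it was used, which gave 5 loci with 90 of 164657 peaks in replicate 1 and 77 of 144708 in replicate 2. The series held 1 group of 2 libraries from whole heart tissue of strain B6NCrl at postnatal day 0, with no treatment, no second tissue and no recorded sex. Both libraries carry the same donor label and separate biosample labels, so an SD given here is the difference of 2 libraries and may reflect technical spread alone. There is no contrast between groups, so the values are descriptions, set beside the same measure over all genes or all peaks.

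In DNase-seq, DNase I cuts accessible DNA first, and places with many cuts are called as peaks of 150 bp and as wider hotspots. Each peak carries a value from the authors, a whole number that reached 145 in replicate 1 and 148 in replicate 2 and serves to rank peaks within a library. Its median was 36 in replicate 1 and 35 in replicate 2, and outside promoters it was 34 and 32. Read totals are not given in the files used here, so the depth is unknown, and a missing weak peak does not show a closed site.

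Red cell precursors make haemoglobin from paired alpha and beta globin chains and haem. In mouse the alpha globin genes are driven by enhancers in the introns of the neighbouring gene Nprl3, and the beta globin genes by a locus control region upstream of Hbb-y. GATA1, TAL1, KLF1 and NF-E2 are the main transcription factors at these elements, and circulating mature red cells have no nucleus, so that an assay of nuclear DNA can see only nucleated precursors. In a bulk sample, few cells of a type and weakly open chromatin in many cells cannot be told apart.

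The sequences under 4 peaks at these genes are shown because they hold the letters that the erythroid factors are known to read. They are given from the plus strand of mm10, from the reference genome GRCm38.p6, in lower case, with matches to the motifs named next in capitals, on either strand. A GATA site was read as AGATAA or as AGATAG, and equally with T in place of the first A. An AP-1 site was read as TGACTCA on one strand, which is TGAGTCA on the other. The NF-E2 site is the latter form with TGC directly before it, so that it contains an AP-1 site. CAGATG is an E-box, and the E-box and GATA pair was read as CTG, then 7 or 8 bases, then GATAA.
Upstream of Hbb-y, chr7:103861036-103861185: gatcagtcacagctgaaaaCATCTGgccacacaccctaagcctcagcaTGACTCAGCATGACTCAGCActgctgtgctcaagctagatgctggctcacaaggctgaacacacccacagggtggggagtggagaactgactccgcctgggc
Farther upstream of Hbb-y, chr7:103870816-103870965: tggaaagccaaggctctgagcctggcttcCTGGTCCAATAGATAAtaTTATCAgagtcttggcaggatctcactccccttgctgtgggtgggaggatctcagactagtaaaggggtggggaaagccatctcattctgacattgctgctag
Upstream of Klf1, chr8:84901296-84901445: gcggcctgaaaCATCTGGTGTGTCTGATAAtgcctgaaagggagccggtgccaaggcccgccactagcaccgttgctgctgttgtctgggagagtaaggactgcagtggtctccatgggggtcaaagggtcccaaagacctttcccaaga
Inside Slc4a1, chr11:102363756-102363905: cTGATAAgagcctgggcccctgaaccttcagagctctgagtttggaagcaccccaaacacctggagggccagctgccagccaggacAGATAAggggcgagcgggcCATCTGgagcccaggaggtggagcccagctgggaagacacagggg

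At the gene starts themselves, open chromatin was almost absent from the lists. Slc4a1 was the 1 gene of the 9 with a promoter peak in both libraries, and the other 8 had none in either. Among all protein-coding genes, 63.7% carried such a peak in each library and 32.5% in neither. All 9 genes lie in the 3 lowest deciles of promoter CpG content, where such a peak was rare: 18.8% of the genes of these deciles carried one in each library. The count of 1 of 9 (11.1%) is near that background and far below the share over all genes. With hotspots in place of peaks the count was also 1 of 9, against 64.5% of all protein-coding genes. For comparison, all 8 cardiomyocyte markers examined had a promoter peak in both libraries, with values of 114 and 110 at Tnni3, 115 and 102 at Tnnt2 and 109 and 103 at Actc1, which encode cardiac troponins I and T and cardiac alpha actin.

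Neither alpha globin gene had a promoter peak in either library, and the sequence at their starts is duplicated. Hba-a1 (ENSMUSG00000069919.7) lies on chromosome 11 from 32283511 to 32284465 and Hba-a2 (ENSMUSG00000069917.7) from 32296489 to 32297298, both on the plus strand. Only 12% of the 32-mers within 500 bp of the 5′ TSS of Hba-a1 occur once in the genome, and 6.80% at Hba-a2, against a median of 100% over all protein-coding genes. The 100 bases before the RefSeq start of Hba-a2, with the CCAAT and TATAA letters of its promoter in capitals, are shown because a read from them has 2 possible origins.
Hba-a2 promoter, chr11:32296392-32296491, plus strand, RefSeq, GRCm38.p6: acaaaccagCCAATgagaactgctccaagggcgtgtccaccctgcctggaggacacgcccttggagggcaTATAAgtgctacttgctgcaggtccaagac
All 100 of these bases recur without a change before Hba-a1, as do all of 240 when the stretch is lengthened. CCAAT occurs on the gene's strand in 9.98% of 32851 RefSeq promoter windows of 100 bases and TATAA in 7.48%. Over the genome, 7.13% of protein-coding genes had fewer than 50% unique 32-mers at their start. A promoter peak in each library was listed for 7.09% of those, and for 72.6% of the genes with at least 95% unique 32-mers. One of the signal tracks named in the deposited text files holds unique reads only, but whether the peaks were called that way is not given in the sources used here. The part of the duplication in the missing alpha globin peaks was not tested.

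**Figure D1:**
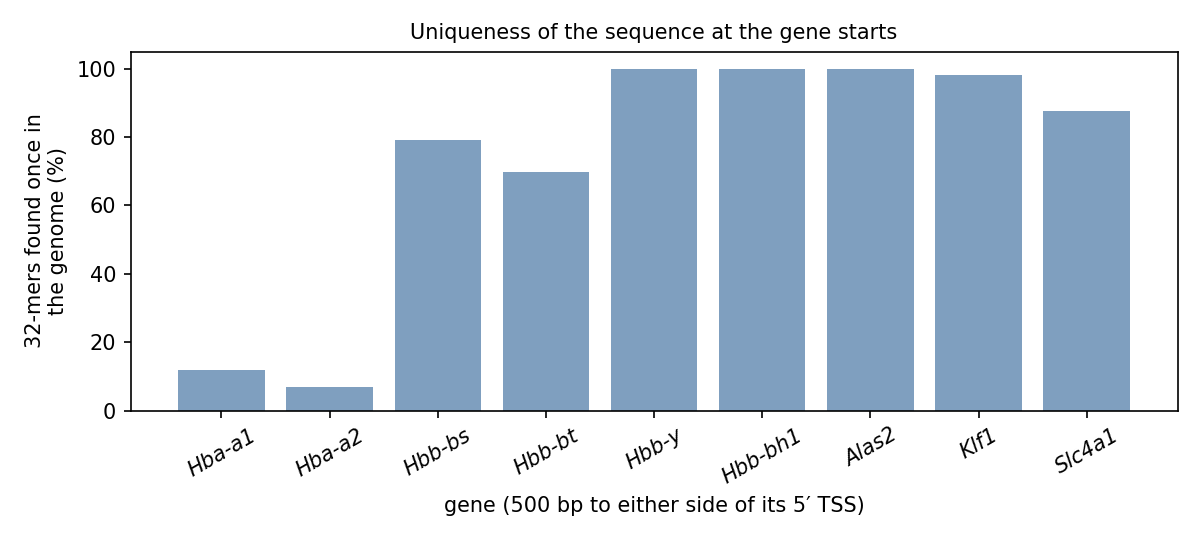
Bars give the share of 32-base words within 500 bp of each gene's 5′ TSS that occur once in the genome, in percent. Hba-a2 (6.80%) and Hba-a1 (12%) are far below the other genes, which lie between 69.8% (Hbb-bt) and 100%.

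The same limit is milder or missing at the other gene starts. Of the 32-mers, 79.2% were unique at Hbb-bs and 69.8% at Hbb-bt, 87.7% at the 5′ TSS of Slc4a1, 98.2% at Klf1 and 100% at Hbb-y, Hbb-bh1 and Alas2. The 4 genes at 98.2% or above also had no promoter peak in either library. Their promoter CpG content puts Hbb-y, Hbb-bh1 and Klf1 in the lowest decile, in which 8.11% of genes carried one in each library, and Alas2 in the next, with 18.0%.

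The beta globin genes lay in a stretch without any peak, between distal sites. The locus, on chromosome 7 from 103752524 to 103913216, had 5 peaks in replicate 1 and 7 in replicate 2, and none lay in a gene or at a promoter. Both libraries lacked a peak over 53.9 kb, from 103807146 to 103861035, which holds all 4 beta-like genes studied. Hbb-bt (ENSMUSG00000073940.3, 103812524 to 103813996), Hbb-bs (ENSMUSG00000052305.6, 103826534 to 103828096), Hbb-bh1 (ENSMUSG00000052217.6, 103841637 to 103843164) and Hbb-y (ENSMUSG00000052187.4, 103851749 to 103853216) follow each other there on the minus strand. Their nearest peaks lay 6925 bp from the TSS of Hbb-bt, 20654 bp from a TSS of Hbb-bs, 17947 bp from that of Hbb-bh1 and 7895 bp from that of Hbb-y, at the same place in both libraries.

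Upstream of Hbb-y, where the locus control region is known to lie, 3 sites between the gene and the olfactory receptor genes were found in both libraries. The site 7895 bp upstream of Hbb-y, the first sequence shown above, had a value of 40 in replicate 1 and 33 in replicate 2 (36.5 ± 4.95, SD, n = 2). These are close to the middle of each library, at percentiles 57.1 and 46.8. Its hotspot spanned 282 bp and 346 bp, with a −log10 q of 6 and 100, the highest value the lists hold. This peak has 2 NF-E2 matches side by side, and as background such a tandem pair is a known feature of the locus control region. An NF-E2 match occurred in 0.246% of the 132434 peaks outside promoters in replicate 1 and in 0.253% of 113617 in replicate 2. With 2 or more matches there were 11 such peaks in replicate 1 and 7 in replicate 2 in the whole genome.

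The second site, 17675 bp upstream of Hbb-y, had 36 in replicate 1 and 18 in replicate 2 (27.0 ± 12.7, SD, n = 2), the widest spread of all 69 sites found in both libraries around the 9 genes. It is the second sequence shown above, with 2 GATA matches a few bases apart, one of them spaced from a CTG as in an E-box and GATA pair. That pair occurred in 1.22% of peaks outside promoters in replicate 1 and 1.17% in replicate 2. The third, 20035 bp upstream, had 24 and 21 and none of the motifs searched. On the other side of the cluster, 46145 bp downstream of the Hbb-y TSS and 6925 bp downstream of the Hbb-bt TSS, a peak on chromosome 7 from 103806996 to 103807145 had values of 31 and 30. The last site found in both libraries lay 57055 bp upstream of Hbb-y, among the olfactory receptor genes, with 37 and 29. Replicate 2 alone listed 2 more peaks beside it, with 22 and 13. All 7 sites of the locus consist wholly of unique 32-mers.

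**Figure D2:**
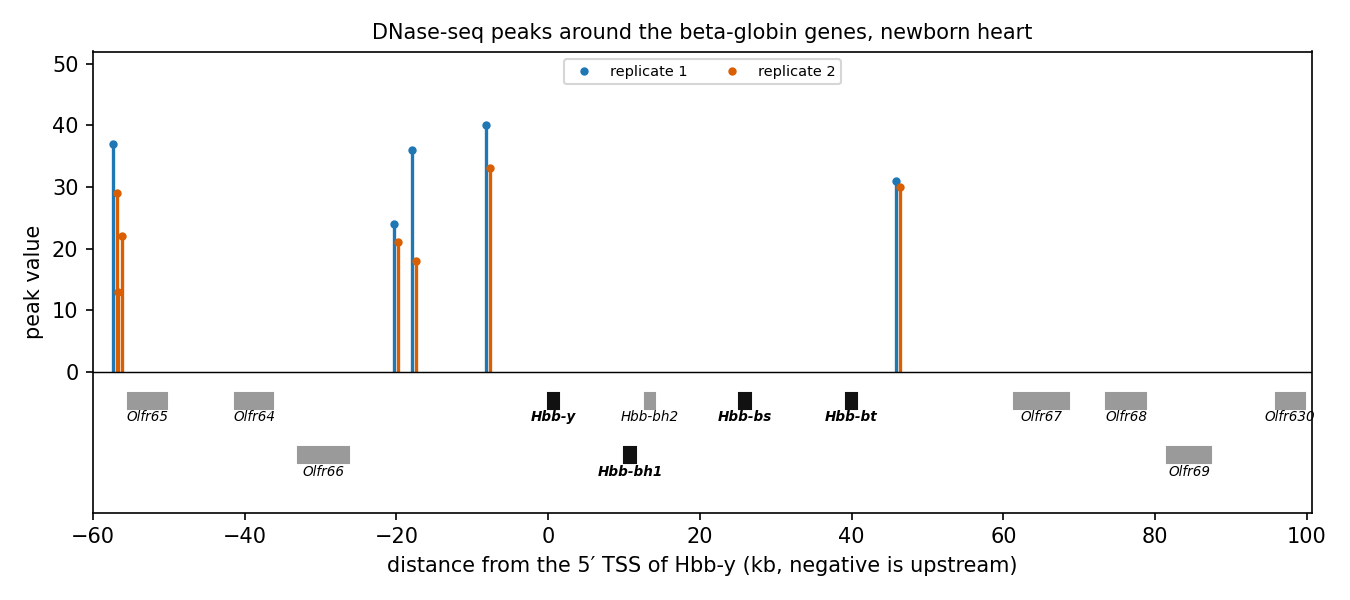
Stems give the deposited value of each peak against its distance from the 5′ TSS of Hbb-y in kb, with the libraries drawn 0.25 kb to either side of the site. Boxes are genes, black for the genes studied. No stem stands over the beta globin genes, and the stem nearest to Hbb-y has values of 40 and 33.

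The alpha globin locus, on chromosome 11 from 32223511 to 32357298, had more and higher peaks, with 22 in replicate 1 and 18 in replicate 2. The highest lay at promoters of neighbouring genes. The promoter peak of Nprl3, which encodes a subunit of a regulator of growth signalling, had 96 in both libraries, and that of Mpg, a DNA repair glycosylase, had 79 and 91. Within Nprl3, 4 sites away from promoters were found in both libraries. They lay 40549, 39129, 37789 and 32629 bp upstream of the embryonic alpha-like gene Hba-x, the first gene of the cluster, and had values of 41 and 40, 43 and 50, 57 and 52, and 46 and 33. The second, in an exon, lay 765 bp from an annotated TSS of Nprl3, and the third lay 575 bp from one, just outside the promoter window. Between the last of the 4 sites and the Nprl3 promoter, a stretch of 23.7 kb of the gene, from 32243866 to 32267595, held no peak in either library. Whether the known alpha globin enhancers lie at any of these 4 sites or in the stretch without peaks was not tested. None of the 18 and 13 peaks of this locus outside promoters had a GATA match or an NF-E2 match. An E-box and GATA pair was in 1 of the 18 peaks of replicate 1 and in 0 of the 13 of replicate 2.

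Between the globin genes the only peaks lay at the theta globin genes Hbq1b and Hbq1a, whose products are minor alpha-like chains. Hbq1b had a promoter peak of 23 in replicate 1 and 36 in replicate 2, 3160 and 3180 bp from the nearest TSS of Hba-a1. Hbq1a had a promoter peak of 22 in replicate 2 only. Of the 32-mers under these peaks 63.0% were unique, so the theta genes are also partly duplicated. Hba-x had no promoter peak in either library, with 100% unique 32-mers. Downstream of the cluster a site found in both libraries 48431 bp from the Hba-x TSS had 68 in both. A site 51409 bp upstream of Hba-x, past the 3′ end of Nprl3 and 1514 bp from a TSS of Mpg, had 66 and 70. The remaining sites found in both libraries downstream had values from 8 to 51.

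**Figure D3:**
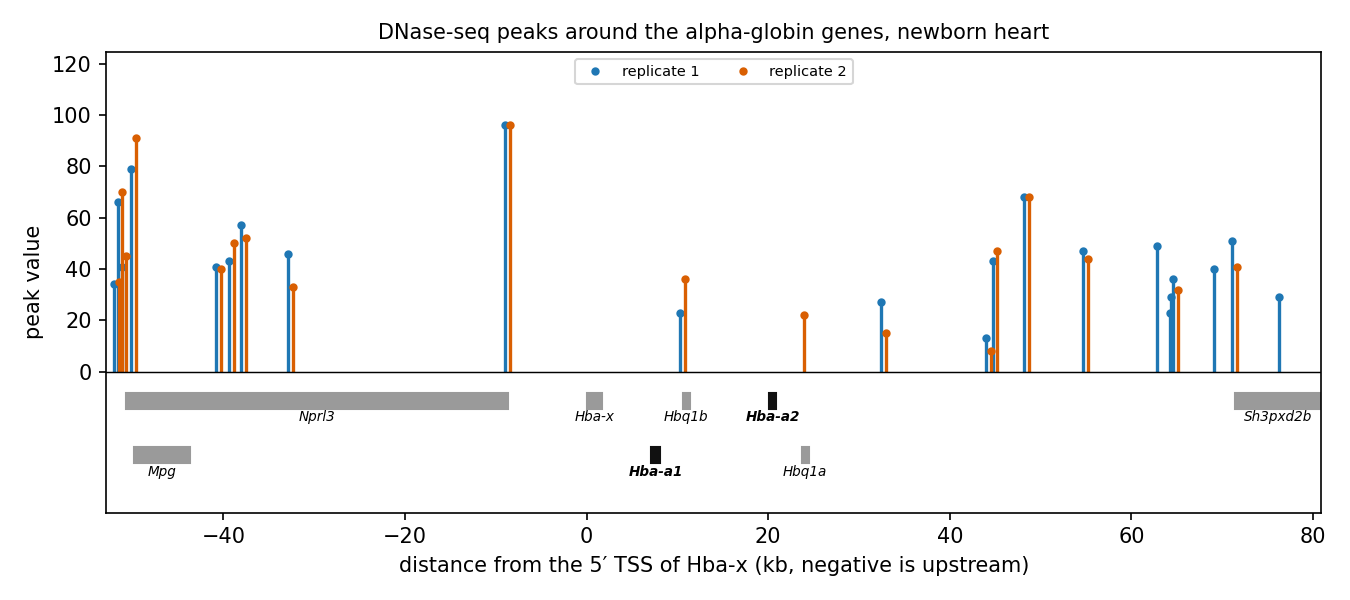
Stems give the value of each peak against its distance from the TSS of Hba-x in kb, with the libraries drawn 0.25 kb to either side of the site and genes as boxes, black for the genes studied. The Nprl3 promoter reaches 96 in both libraries, 4 lower sites stand inside Nprl3, and nothing stands over Hba-a1 or Hba-a2.

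Around both globin clusters, few peaks held GATA matches. A GATA match was present in 1 of 23 peaks outside promoters in replicate 1 (4.35%) and in 2 of 20 in replicate 2 (10%), against 24.7% and 24.0% of all peaks outside promoters. The mean of the libraries, 7.17%, became 12.5% with 30 kb and 12.6% with 100 kb on each side, 3.33% with the stronger 50% of peaks and 4.67% with AGATAA alone. In the beta globin locus alone, 1 of 5 peaks in replicate 1 (20%) and 2 of 7 in replicate 2 (28.6%) had a GATA match. These shares are near those of all peaks outside promoters. The alpha globin locus had 0 of 18 and 0 of 13. The CACC-type letters CCNCNCCC are read by KLF factors and are not capitalised in the sequences shown. Of the peaks of both clusters, 39.1% and 35% held them, against 19.1% and 18.5% of all peaks outside promoters. Over all 5 loci the shares were 37.9% and 38.3%, and in the beta globin locus 2 of 5 and 1 of 7 peaks. The narrower form CCACACCC was in 0 of 23 and 0 of 20 peaks of both clusters, against 1.64% and 1.61% of all. These sets are small and the libraries share most sites.

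Alas2 encodes the erythroid enzyme of the first step of haem synthesis. Alas2 (ENSMUSG00000025270.13) lies on the X chromosome from 150547375 to 150570638, on the plus strand, and had no peak at any of its 4 annotated TSSs and none in its body. A stretch of 58.5 kb that holds the whole gene, from 150529626 to 150588095, was free of peaks in both libraries. The nearest peak of replicate 1 lay 17824 bp away with a value of 4, and replicate 2 did not list it. The sites found in both libraries were 5. The highest, 78 and 79, is the promoter shared by Apex2, a DNA repair nuclease, and Pfkfb1, an enzyme of glucose metabolism, 40796 bp downstream of the Alas2 TSS, with a second site of 50 and 33 beside it. The others lay 46116 bp downstream inside Pfkfb1 (36 and 25) and 36524 and 35924 bp upstream (35 and 42, 23 and 22). Among these, the sites at 46116 and 35924 bp held 1 GATA match each.

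Klf1, the transcription factor that switches on the adult beta globin genes, had its main peak inside the gene and not at its start. Klf1 (ENSMUSG00000054191.8) lies on chromosome 8 from 84901928 to 84905291, on the plus strand. The peak on chromosome 8 from 84903136 to 84903285 had a value of 67 in both libraries, at percentiles 85.1 and 86.4, inside a hotspot of 671 bp in replicate 1 and 529 bp in replicate 2. It lies wholly in the coding part of exon 2, 1283 bp from the TSS, and has 72.7% GC and 16 CpG sites in its 150 bp. A weaker peak over the end of the same exon had 32 and 19, and replicate 2 alone listed 1 with 20 in that exon. The third sequence shown above, 557 bp upstream of the TSS, was a peak of 19 in replicate 1 only. It lay just outside the promoter window, with an E-box and GATA pair. The region upstream of Klf1 is known as a target of GATA1.

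The highest peaks of the Klf1 locus lay at promoters of other genes. They were those of Calr, a calcium-binding chaperone, with 127 and 123, Gcdh, a mitochondrial dehydrogenase, with 109 and 114, Dnase2a, a lysosomal nuclease, with 100 and 87, and Farsa, a tRNA synthetase subunit, with 83 and 83. The Calr peak is also within 500 bp of the start of 1700122E12Rik. An intronic site in Dnase2a and Mast1, 19823 bp downstream of the Klf1 TSS, had 70 and 58 and 1 GATA match. The density around Klf1 was 14.6 ± 1.15 peaks per 100 kb (SD, n = 2), and 74.7% of protein-coding genes had as many or fewer.

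Slc4a1 encodes band 3, the anion exchanger of the red cell membrane. Slc4a1 (ENSMUSG00000006574.15) lies on chromosome 11 from 102348824 to 102366203, on the minus strand, and was the only one of the 9 genes with a promoter peak. Its value was low, 17 in replicate 1 and 21 in replicate 2 (19.0 ± 2.83, SD, n = 2), at percentiles 9.47 and 20.4 of each library. The median promoter value of all protein-coding genes with a peak in both libraries was 87. This peak lay at an internal TSS of a transcript annotated without a coding sequence, 127 and 167 bp from it in replicates 1 and 2, and not at the start of the coding transcript. The fourth sequence shown above is that of the peak in replicate 1, with 2 GATA matches and an E-box. In replicate 2 the peak ran from 102363796 to 102363945, which leaves out the first of these GATA matches. Replicate 1 alone listed 2 more peaks in the gene, with 18 and 11.

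Upstream of Slc4a1 lies Bloodlinc, a long noncoding RNA gene known from red cell precursors. A peak in an intron of Bloodlinc, 9808 bp upstream of the 5′ TSS of Slc4a1, had 44 in both libraries, and a peak just beyond the gene's 3′ end had 27 and 23. Replicate 2 listed 2 more peaks in its exons, with 21 and 18. The highest peaks of the locus lay farther from Slc4a1. They were a site beside Atxn7l3 with 130 and 118, a site 685 bp from a TSS of Slc25a39 with 122 and 127, and promoter peaks of Ubtf, a factor of ribosomal RNA transcription, with 112 and 118, and of Slc25a39, a mitochondrial carrier, with 88 and 90. The next Ubtf promoter peaks had 89 and 88, and 94 and 83. With 24.0 ± 3.09 peaks per 100 kb (SD, n = 2), 96.7% of protein-coding genes had as many or fewer.

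**Figure D4:**
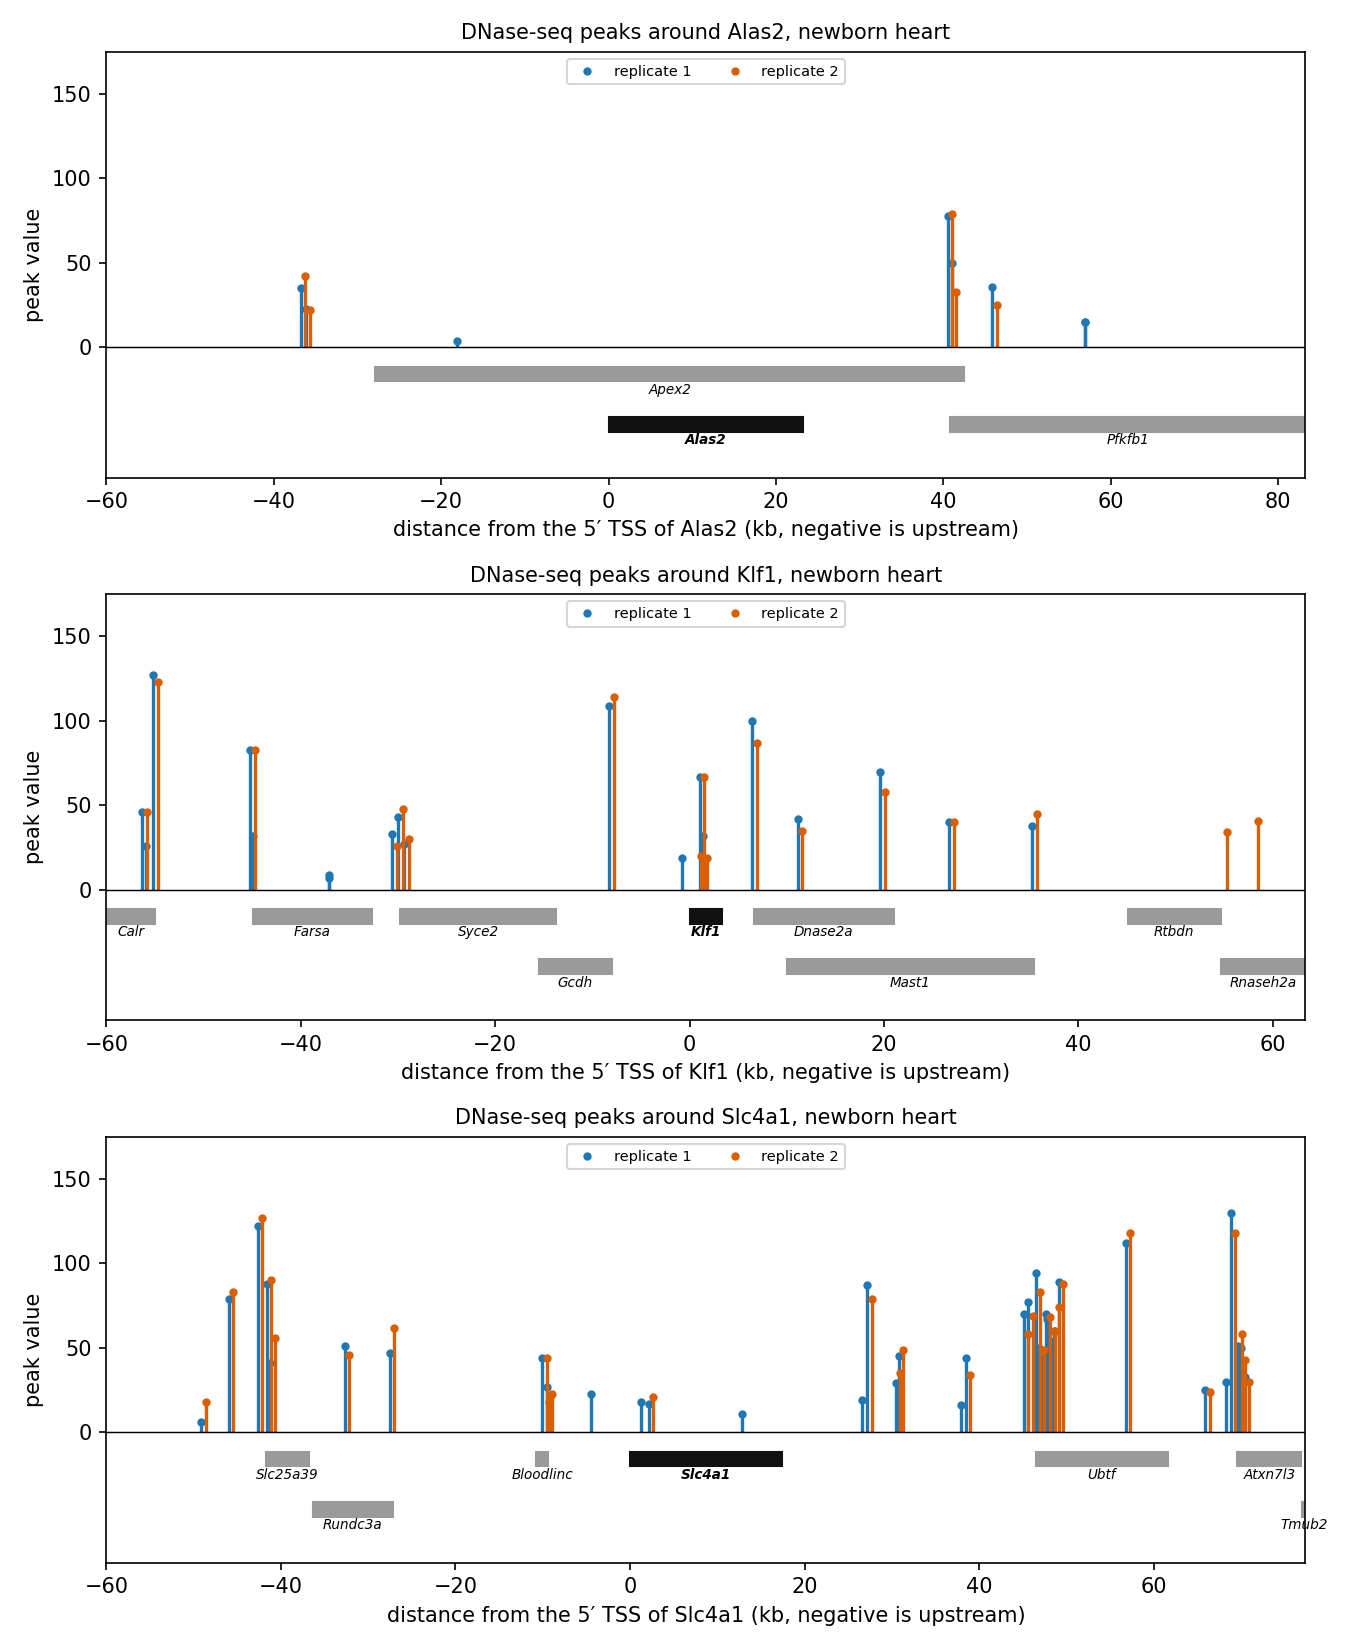
Stems give the value of each peak against the distance in kb from the 5′ TSS of Alas2, Klf1 and Slc4a1, with the libraries drawn 0.25 kb to either side of the site and genes as boxes, black for the genes studied. Alas2 is bare, Klf1 has an internal peak of 67 in both libraries, and Slc4a1 has low peaks of 17 and 21 between taller peaks on both sides.

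Across the 5 loci few sites lay in the 9 genes themselves. Of 98 sites, 69 were found in both libraries. Only 6 sites lay in the body of one of the 9 genes, 3 of them in both libraries, while 32 lay at promoters of other genes and 60 at no promoter and in none of the 9 genes. Among sites found in both libraries, the 3 in the bodies of the 9 genes had a median value of 25.5. It was 40 for the 38 at no promoter and in none of the 9 genes, and 55.8 for the 28 at promoters of other genes. In replicate 1, 76.7% of the peaks overlapped a peak of replicate 2, and 90.9% the other way, against 70.1% and 79.8% of all peaks. With a peak in the gene body or at a promoter counted, 2 of 9 genes had one in both libraries, Klf1 and Slc4a1, against 73.7% of all protein-coding genes and 34.6% of those of the 3 lowest CpG deciles. Peak density split the genes by place. The beta globin genes had 3.29 to 4.94 peaks per 100 kb and Alas2 4.54 ± 1.48 (SD, n = 2), below the median of 9.90 over protein-coding genes. Hba-a1 had 14.9 ± 1.17 and Hba-a2 12.4 ± 2.34 (SD, n = 2), above it. Windows of neighbouring genes overlap and share peaks.

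Most other genes of the erythroid programme had promoter peaks. These lists hold genes known from other cell types too, such as Tfrc and Slc2a1. Of 65 such genes, 52 carried one in each library (80.0%), 11 in neither and 2 in 1 library, beside the 63.7% of all protein-coding genes. Their median value was 83.5, against 87 over all genes. By role these were 15 of 16 transcription factors, 13 of 14 genes of haem and iron, 15 of 18 of the membrane and its skeleton, 8 of 13 others and 1 of 4 other globins. The 65 genes range over CpG deciles 1 to 10, in which 8.11% to 96.6% of genes carried such a peak in each library. The 9 genes studied lie in the 3 lowest deciles, so the 2 sets are not matched for promoter CpG content.

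Each pair of values that follows is the highest promoter peak of replicate 1 and of replicate 2, which need not be the same peak. Among the transcription factors, Zfpm1, the partner of GATA factors, had 121 and 115, Nfe2l2, a factor of the stress response, 113 and 114, and Ldb1, which joins enhancers and promoters, 113 and 103. Nfe2, the erythroid subunit of NF-E2, had 94 and 75, and Tal1, a blood and endothelial factor, 41 and 54. Gata1, the master regulator of red cells, was the only factor without a peak in either library. In the haem and iron list, Ppox, which encodes an enzyme of haem synthesis, had 131 and 112, Tfrc, the transferrin receptor, 108 and 106, and Slc11a2, an iron transporter, 105 and 104. The only gene of that list without a peak was Slc25a37, the mitochondrial iron carrier, with 0% unique 32-mers at its start, named after its values were seen.

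In the membrane list, Epb41 (103 and 101, at different TSSs), Slc2a1 (94 and 88) and Sptb (80 and 87) were highest, which encode a skeleton protein, a glucose transporter and beta spectrin. Kel and Rhag, which encode blood group proteins, had none, and Epb42 had 16 in replicate 2 only, all 3 named after their values were seen. Among the others Bnip3l, which serves the removal of mitochondria, had 115 and 107, Blvrb 109 and 110 at a promoter shared with Sptbn4, and Bpgm, the enzyme that makes the oxygen regulator of haemoglobin, 107 and 97. Epor, the erythropoietin receptor, had 56 and 39, from peaks at different places. Those with no peak were Car1, Hemgn, Pklr, Trim10 and Tspo2, also named after their values were seen.

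**Figure D5:**
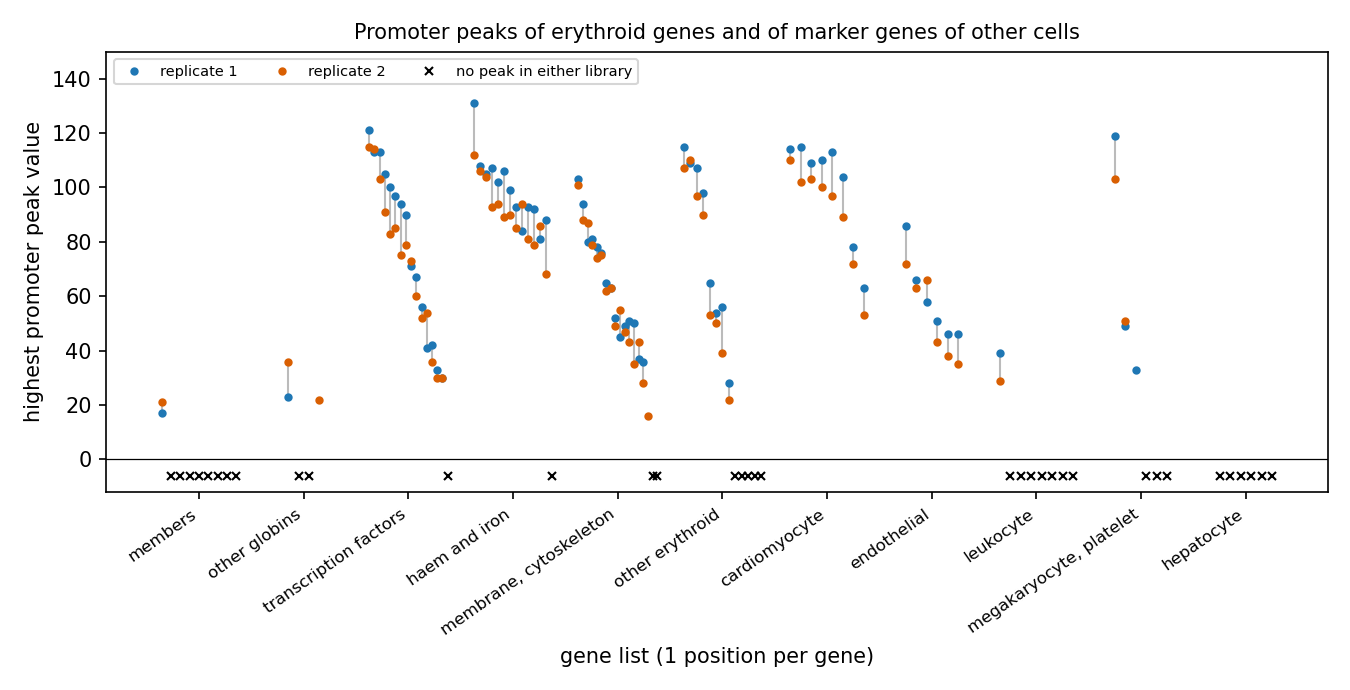
Each position is 1 gene, with the highest promoter peak value in replicates 1 and 2 joined by a line, and a cross where neither library had a promoter peak. The members show 1 low pair at 17 and 21 and 8 crosses, while most genes of the other erythroid lists and all cardiomyocyte and endothelial markers have peaks.

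Markers of the other cells that heart tissue and its blood could hold were set beside these. All 6 endothelial markers had a promoter peak in both libraries, led by Tie1 (86 and 72), Kdr (66 and 63) and Cdh5 (58 and 66). Of 8 leukocyte markers 1 had one, Cd68, with 39 and 29. Of 6 megakaryocyte and platelet markers 2 had one in both libraries, Itga2b with 119 and 103 at a TSS inside the gene, and Pf4 with 49 and 51. Gp1ba had 33 in replicate 1 only. None of the 6 hepatocyte markers had one. Over all protein-coding genes the share with one in both libraries was 63.7%. The leukocyte and hepatocyte markers all lie in CpG deciles 2 to 4, where it was 18.0% to 46.2%. The endothelial markers lie in deciles 3 to 7, with 30.4% to 91.6%. The megakaryocyte and platelet markers lie in deciles 1 to 5, with 8.11% to 71.2%. The part of blood precursors of any kind in the sites around the globin genes was not tested.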

How the data were processed

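DNase-seq of newborn mouse heart gave 2 libraries in 1 group. Per the deposited text files, each replicate has peak and hotspot lists of its own, made from its mm10 alignments. No aligner, caller or threshold is named: not given in the sources used here. The deposited peak signal is a whole number per peak of 150 bp with no normalization stated. The −log10 q of the hotspots deposited by the authors runs from 1.30 and is capped at 100. The deposited score of a hotspot repeats that value in rounded form and was not used. How regions were called can add or remove any weak peak.

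Chromosomes 1 to 19, X and Y were used, with names and lengths checked against GRCm38.p6, and genes from GENCODE vM21 (Python 3.11.15, pandas 2.3.3, numpy 2.4.6). Promoter peaks were those centred no more than 500 bp from an annotated TSS. Sites of both libraries were paired by an overlap of at least 1 bp. CpG deciles use observed over expected CpG within 500 bp of a gene's 5′ end. Uniqueness counts 32-mers on both strands of these chromosomes, a length picked with the read length unknown. It was added after seeing the data, as was the count of peaks in gene bodies. RefSeq promoters matched 7 of the 9 genes. Ahsp, on the erythroid list, has no entry under that symbol in the annotation used.

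The members and lists were chosen with earlier results of these data known. Named genes were the 9 members, the highest 6 sites of each locus found in both libraries, distal sites in Nprl3 and upstream of Hbb-y, a fixed set of erythroid genes and the 3 highest members of each list. Some genes that this rule names are not reported here. Promoter calling and motif search were tested on simulated data. No test was run, since 1 group allows none, and no interval from counts was computed.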

Additional observations from a re-analysis of the deposited data

How the results depend on the processing

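Of the 9 genes, 1 had a promoter peak in each library. It was 2 with a window of 1000 bp, where Klf1 enters with its upstream and exonic peaks, and 2 with peaks in the gene body counted, a choice made after seeing the data. It was 0 with the stronger 50% of peaks, which leaves no value for Slc4a1, and 0 with the TSSs of protein-coding transcripts only, and it was 1 without replicate 1 and 1 without replicate 2. The count of other erythroid genes stayed within 47 to 53 of 65 under the other settings, and was 52 to 54 without 1 replicate. The Slc4a1 value was 17 to 21 without 1 replicate. The mean number of peaks around the 9 genes, 83.5, became 40 with 30 kb and 152 with 100 kb on each side, 52.5 with the stronger 50% of peaks, and 77 to 90 without 1 replicate. The hotspot length of 27815.5 bp became 12755.5 bp with 30 kb, 49894 bp with 100 kb and 19136.5 bp with hotspots at the highest deposited value only, as fewer or more bases were counted, and 26695 to 28936 bp without 1 replicate. The mean share of globin peaks with a GATA match, 7.17%, was 12.5% with 30 kb and 12.6% with 100 kb, 3.33% with the stronger 50% of peaks and 4.67% with AGATAA alone, and 4.35% to 10% without 1 replicate. No paired analysis was possible because there is 1 group. Depth is unknown, so weak sites near the caller's limit, such as those at Slc4a1, are the least certain.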
